A study of Mus musculus with 8 samples.

Results

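Zinc handling genes were examined in the transcriptomes of hand-picked mouse pancreatic islets. The set was named with earlier results of these data known, and holds 10 of the 55487 gene identifiers in the tables: 4 zinc exporters of the ZnT family (Slc30a8, Slc30a1, Slc30a5 and Slc30a7), 3 zinc importers of the ZIP family (Slc39a5, Slc39a8 and Slc39a14), the metallothioneins Mt1 and Mt2, and the metal-sensing transcription factor Mtf1. All 10 passed the filter on low counts and were among the 16266 genes tested. The Ide-/- group (3 libraries, replicates 1 to 3) lacked insulin-degrading enzyme, a zinc metalloprotease that cleaves insulin. The Ide+/+ group (5 libraries, replicates 1 to 5) carried the intact gene. Both groups were C57BL/6J mice labelled female that ate a diet with 60 kcal% fat for 2 weeks from 10 weeks of age. The labels do not say how the Ide allele was made, or how many animals gave islets to each library. If libraries shared animals, p-values reflect no more than how much these libraries varied, which may be technical.

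Beta cells hold some of the highest zinc concentrations of the body, because insulin is stored in the secretory granule as a zinc-bound crystal. ZnT proteins move zinc out of the cytosol, either across the plasma membrane or into vesicles and the Golgi, and ZIP proteins move it into the cytosol. Metallothioneins bind free zinc in the cytosol, and MTF1 switches on their genes when zinc rises. In the exocrine pancreas, acinar cells also carry much zinc, which leaves the body with the pancreatic juice.

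The libraries differed in depth and in their content of exocrine transcripts. Total counts ran from 7143415 to 17445935 in Ide-/- libraries and from 19277269 to 33371642 in Ide+/+ libraries. Ide checked the labels: it had 0.167, 0.285 and 0.367 CPM (counts relative to the TMM-scaled library size) in Ide-/- islets, against 19.5 to 39.2 CPM in Ide+/+ islets. All 10 beta cell markers were detected in every library, at 13.5% to 21.8% of counts in Ide-/- libraries and 1.70% to 7.75% in Ide+/+ libraries. The 31 acinar cell markers made up 0.801% to 1.79% of counts in Ide-/- libraries, against 26.3% to 45.6% in Ide+/+ libraries, and all 31 were called lower. Prss1 and Ptf1a were at 0 in at least 1 Ide-/- library, and no acinar marker was at 0 in an Ide+/+ library. Markers of macrophages (11 of 13 tested) and duct cells (8 of 11) were also called lower. Of the alpha cell markers 2 of 7 were called lower and 0 higher, of the 18 insulin granule genes 4 were called higher and 1 lower, and of the 10 beta cell markers 0 were called. The summed levels of macrophage and duct markers were 84.2 to 134.0 and 325 to 350.2 CPM in Ide-/- libraries, against 332 to 631 and 1065 to 2782 CPM in Ide+/+ libraries. The macrophage marker Itgam was at 0 in some libraries of both groups. The part of these other cell types in the results that follow was not tested, and genotype and acinar share cannot be told apart in this design because they do not overlap. Counts of X- and Y-linked genes went against the female label in 7 of the 8 libraries, and Ide+/+ replicate 1 was the exception. Results that rest on that library are therefore also given without it.

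Of the 10 zinc genes, 5 fell in Ide-/- islets, 0 rose and 5 did not pass the test (edgeR quasi-likelihood test, adjusted p under 0.05 over all tested genes). Both metallothioneins and the 3 ZIP importers made up the 5 that fell, while the 4 ZnT exporters and Mtf1 did not pass. Over all tested genes 21.1% were called, 10.6% lower and 10.4% higher. The median log2 fold change was −0.89 for the 10 genes and −0.01 for all tested genes. In CPM, every Ide-/- library lay below every Ide+/+ library for the 5 genes that fell, a pattern seen in 15.6% of all tested genes. Without Ide+/+ replicate 1 the 5 falls were still called, and Slc30a5 was called higher. With library totals as the only scaling, 3 of the 10 genes were called higher (Slc30a1, Slc30a5 and Slc30a7) and 4 lower (all but Slc39a14 of the 5), while 51.7% of all tested genes were called higher and 1.73% lower, with a median of 1.22. With the acinar share of counts as a covariate, 0 of the 10 genes were called and 4 had an unadjusted p under 0.05. In that fit 12 of all tested genes were called, and the median SE was 0.66, against 0.29 with genotype as the only term. In bulk islets, fewer cells of a type and less RNA per cell cannot be told apart.

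**Figure D1:**
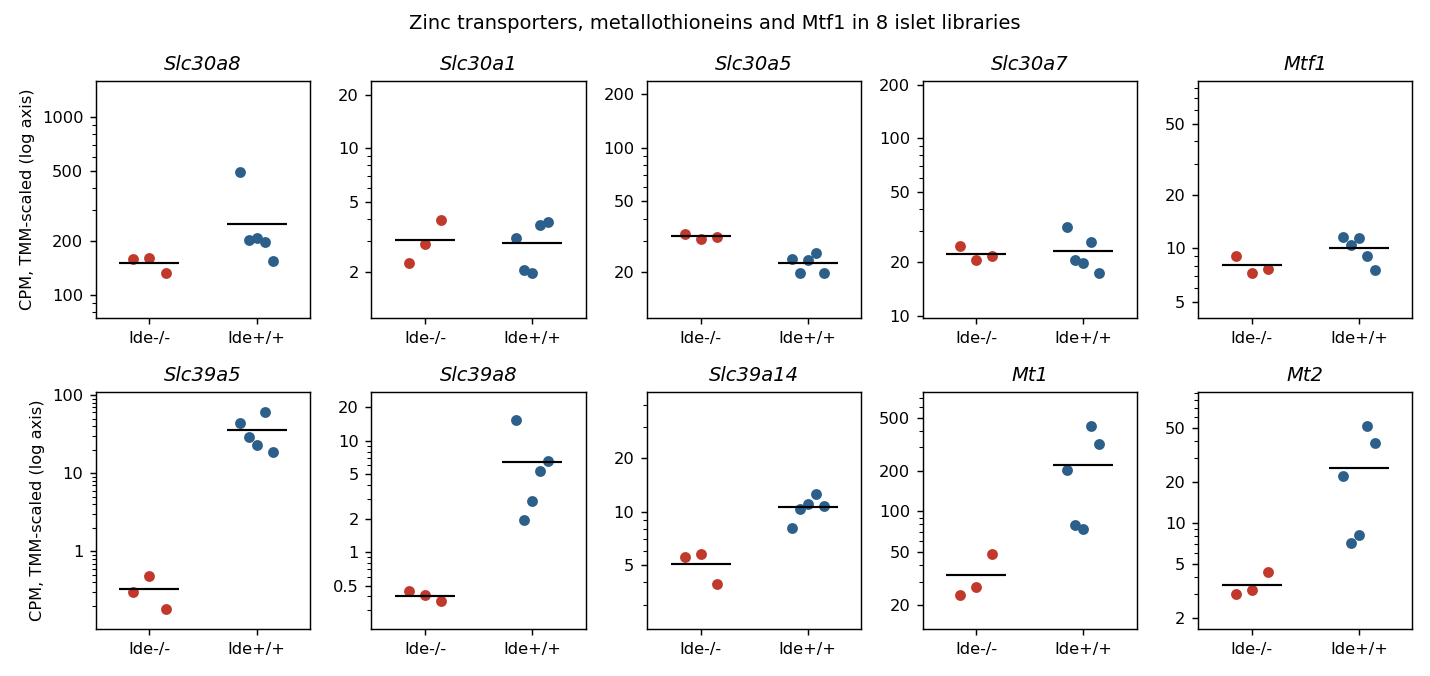
CPM of each of the 10 zinc genes on a log axis, with 1 point per library and a line at each group's mean, Ide-/- left of Ide+/+ in each panel. The groups do not overlap for Slc39a5, Slc39a8, Slc39a14, Mt1 and Mt2, all lower in Ide-/-, and for Slc30a5, higher in Ide-/-.

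Metallothioneins are short, cysteine-rich proteins that bind zinc and copper. Mt1 and Mt2 lie side by side on the plus strand of chromosome 8 (GRCm38), with Mt2 at 94172664 to 94173568 and Mt1 at 94179082 to 94180327, 5513 bases apart. MTF1 binds metal response elements in their promoters, and in that of Slc30a1. The promoters of these 3 genes are printed because Mt1 and Mt2 moved together and Slc30a1, a further known MTF1 target, did not pass the test. Each window is from RefSeq (GRCm38.p6) and runs from 250 bases before to 50 bases after an annotated start. It is written 5′ to 3′ on the gene's strand, and capitals mark the core of the metal response element, TGCACNC or TGCGCNC on either strand.
Mt1, chr8:94178839-94179138, plus strand: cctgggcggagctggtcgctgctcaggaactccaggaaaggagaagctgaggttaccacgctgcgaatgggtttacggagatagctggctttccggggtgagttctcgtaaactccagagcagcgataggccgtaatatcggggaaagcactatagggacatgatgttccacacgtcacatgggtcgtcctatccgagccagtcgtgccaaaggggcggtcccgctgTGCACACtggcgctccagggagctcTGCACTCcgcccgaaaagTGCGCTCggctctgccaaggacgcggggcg
Mt2, chr8:94172368-94172667, plus strand: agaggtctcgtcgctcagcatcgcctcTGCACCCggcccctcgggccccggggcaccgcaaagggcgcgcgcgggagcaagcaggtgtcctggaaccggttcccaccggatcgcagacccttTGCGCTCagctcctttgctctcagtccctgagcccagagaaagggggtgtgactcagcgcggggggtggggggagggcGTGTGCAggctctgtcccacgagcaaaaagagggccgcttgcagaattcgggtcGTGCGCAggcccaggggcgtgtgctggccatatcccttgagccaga
Slc30a1, chr1:191906531-191906830, plus strand: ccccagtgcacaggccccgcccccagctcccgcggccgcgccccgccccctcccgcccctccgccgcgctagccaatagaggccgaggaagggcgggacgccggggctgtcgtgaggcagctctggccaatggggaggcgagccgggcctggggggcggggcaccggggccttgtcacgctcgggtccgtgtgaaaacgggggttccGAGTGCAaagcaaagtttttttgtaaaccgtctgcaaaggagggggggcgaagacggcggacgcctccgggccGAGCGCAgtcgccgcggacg
The core occurred 3 times in the Mt1 window, 4 times in that of Mt2 and 2 times in that of Slc30a1, with no overlaps between matches. At least 1 core was present in 25.7% of the 32851 RefSeq promoter windows, at least 2 in 7.11%, at least 3 in 1.97% and at least 4 in 0.517%. Cores outside the windows were not counted. All 3 in Mt1 were on the gene's strand, the first 23 bases before the annotated start of its window and the last beginning 20 bases after it. In Mt2, 2 were on each strand, the farthest beginning 223 bases before the start. Of the other 5 genes with a window, Slc30a5 had 1 core, Slc39a5 and Slc39a8 had 1 in 1 of their 2 windows, and Slc30a7 and Mtf1 had 0. A match describes the letters of a window and is no evidence of binding.

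Mt1 (ENSMUSG00000031765) had 23.9, 27.5 and 48.4 CPM in Ide-/- islets, against 204, 79.5, 73.9, 434 and 320 CPM in Ide+/+ islets. The groups did not overlap, and the Ide+/+ libraries were spread widely, with replicates 2 and 3 lowest. Mt1 fell by 2.74 on the log2 scale, 6.69-fold (SE 0.61, adjusted p = 0.0096, edgeR). Mt2 (ENSMUSG00000031762) had 2.98, 3.21 and 4.31 CPM in Ide-/- islets, against 22.1, 7.13, 8.18, 51.0 and 38.6 CPM in Ide+/+ islets. Its libraries stood in nearly the same order as those of Mt1, again without overlap. Mt2 fell by 2.87 on the log2 scale, 7.32-fold (SE 0.64, adjusted p = 0.0097, edgeR). The 3 Ide+/+ libraries with the most acinar counts, replicates 1, 4 and 5 at 42.2% to 45.6%, were also the 3 with the most Mt1 and Mt2. They also had the lowest TMM factors (0.405, 0.641 and 0.484), which raise CPM. Of these 3, replicate 1 had the highest acinar share and the least Mt1 and Mt2. In TPM it had 204 for Mt1, against 186 in replicate 2, and 24.9 for Mt2, against 22.5 in replicate 3. With library totals as the only scaling both were still called, at −1.26 and −1.33, or −2.48 and −2.55 relative to the median of all genes. Neither call held with no filter on low counts, which raised the adjusted p to 0.060 for Mt1 and 0.091 for Mt2 (edgeR), and with the acinar covariate the fitted changes were 1.71 and 2.08, neither called. Where Mt2 overlaps its antisense partner Gm45774, it is unknown whether their reads were told apart, since the strand setting of the counting is not given in the sources used here. Gm45774 had 56 counts over the Ide-/- libraries and 285 over the Ide+/+ libraries, against 233 and 1957 for Mt2. No expected count of Mt2 was within 0.01 of a whole number, so at least some of its reads were divided by a model in every library. The expected counts of Mt1 were whole in all 8.

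The 2 metallothioneins differed in abundance. In TPM, the deposited share of transcripts corrected for their length, Mt1 had 79.4, 82.2 and 117 in Ide-/- islets, against 204, 186, 168.5, 603 and 357 in Ide+/+ islets. By TPM it ranked 246 to 491 among 21974 protein-coding genes in Ide-/- libraries, and 60 to 171 in Ide+/+ libraries. Mt2 averaged 11.6 ± 0.36 TPM in Ide-/- islets and 40.8 ± 27.8 TPM in Ide+/+ islets (SD, n = 3 and 5). It ranked 2624 to 3630 in Ide-/- libraries and 302 to 1577 in Ide+/+ libraries. The 2 genes kept a steady ratio: Mt1 had 6.95, 7.18 and 9.72 times the TPM of Mt2 in Ide-/- libraries, against 8.19, 9.15, 7.50, 7.06 and 7.02 times in Ide+/+ libraries. The log2 ratio differed by 0.02 between the groups (two-sided exact permutation test of the 3 against the 5 libraries, p = 0.857), well inside the spread within each group, and its sign turned under other settings.

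The metallothioneins were also set against the acinar markers, whose median log2 fold change was −6.34. Per 1000 TPM of acinar markers, the summed Mt1 and Mt2 TPM was 14.9, 7.47 and 10.1 in Ide-/- libraries, against 0.477, 0.841, 0.780, 1.59 and 0.947 in Ide+/+ libraries. Every Ide-/- library lay above every Ide+/+ library. The log2 ratio was higher by 3.60, 12.1-fold (exact permutation p = 0.0179, the smallest this design can give, and 0.0446 adjusted over the 5 ratios tested). Without Ide+/+ replicate 2 or 3, which were closely alike, the exact permutation p was 0.0286. That is the smallest possible with such a library left out, and it was not adjusted. The denominator itself fell, so this ratio restates the unequal size of the falls. Mt3, the form of neurons and some endocrine cells, was measured at 0.964 ± 0.251 CPM in Ide-/- islets and 0.416 ± 0.206 CPM in Ide+/+ islets. Its change of 1.11 on the log2 scale (SE 0.41) did not pass the test (adjusted p = 0.074, edgeR), although all Ide-/- libraries lay above all Ide+/+ libraries. It was singled out after its values were seen. Mt4 was too low to test.

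Mtf1 (ENSMUSG00000028890; chromosome 4, 124802104 to 124849800, plus strand), whose protein senses zinc and activates the metallothionein genes, did not pass the test. Its level was 9.11, 7.28 and 7.70 CPM in Ide-/- islets, against 11.6, 10.4, 11.4, 9.01 and 7.51 CPM in Ide+/+ islets. The groups overlapped, and edgeR put the difference at −0.31 on the log2 scale (SE 0.20, adjusted p = 0.278). Mtf1 overlaps 1110065P20Rik on the opposite strand, which had 1442 counts over the Ide-/- libraries and 1289 over the Ide+/+ libraries, against 590 and 1067 for Mtf1. RSEM divided at least some of the Mtf1 reads in every library (no expected count was within 0.01 of a whole number), so the value of Mtf1 is uncertain.

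Slc39a5 encodes ZIP5, an importer of the basolateral membrane of intestinal and pancreatic acinar cells. This gene (ENSMUSG00000039878; chromosome 10, 128395931 to 128401229, minus strand) had the largest fold change of the 10. Its level was 0.306, 0.488 and 0.183 CPM in Ide-/- islets, against 43.6, 29.5, 23.3, 61.4 and 18.7 CPM in Ide+/+ islets. No library of the 2 groups came near the other group. The Ide-/- values rested on 11, 12 and 2 counts, and the Ide+/+ values on 174 to 1157 counts. Slc39a5 fell by 6.64 on the log2 scale, 100.1-fold (SE 0.53, adjusted p = 9.4e-05, edgeR). Slc39a5 overlaps Ankrd52 on the opposite strand, which had 63 counts over the Ide-/- libraries and 142 over the Ide+/+ libraries, against 25 and 3465 for Slc39a5. By TPM it ranked 12530 to 13823 among protein-coding genes in Ide-/- libraries and 958 to 2951 in Ide+/+ libraries.

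Set against the acinar markers, the difference in Slc39a5 was no longer larger than the spread. Its TPM per 1000 TPM of acinar markers was 0.0477, 0.0287 and 0.0086 in Ide-/- libraries, against 0.0217, 0.0785, 0.0584, 0.0526 and 0.0120 in Ide+/+ libraries. The groups overlapped over most of their range. The log2 ratio differed by −0.67 (exact permutation p = 0.446, adjusted p = 0.558 over the 5 ratios), and by 0.03 without Ide-/- replicate 3, the library in which Slc39a5 had 2 counts. The acinar markers had a median log2 fold change of −6.34, beside −6.64 for Slc39a5. With the acinar covariate its change was −5.26 (adjusted p = 0.072, edgeR).

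Slc39a8 encodes ZIP8, which imports zinc and manganese and is induced in macrophages and other cells by inflammatory signals. Slc39a8 (ENSMUSG00000053897; chromosome 3, 135825279 to 135888572, plus strand) had 0.446, 0.407 and 0.367 CPM in Ide-/- islets, against 15.3, 1.96, 2.88, 5.30 and 6.55 CPM in Ide+/+ islets. The groups did not overlap, and Ide+/+ replicate 1 stood above the other Ide+/+ libraries. The Ide-/- values rested on 16, 10 and 4 counts. Slc39a8 fell by 3.88 on the log2 scale, 14.7-fold (SE 0.70, adjusted p = 0.0036, edgeR), and by 3.25 without Ide+/+ replicate 1. With the acinar covariate its change was 0.49, and it was not called.

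Slc39a14 encodes ZIP14, an importer of zinc, manganese and iron that is induced by inflammation in liver. Slc39a14 (ENSMUSG00000022094; chromosome 14, 70303469 to 70351425, minus strand) had 5.57, 5.78 and 3.94 CPM in Ide-/- islets, against 8.12, 10.4, 11.1, 12.6 and 10.7 CPM in Ide+/+ islets. The groups did not overlap in CPM. Slc39a14 fell by 1.04 on the log2 scale, 2.06-fold (SE 0.21, adjusted p = 0.0065, edgeR), but with library totals as the only scaling its log2 fold change was 0.18, where the median of all genes was 1.22 (−1.04 relative to it). In TPM it had 3.94, 3.26 and 1.38 in Ide-/- islets, against 1.68, 5.51, 7.23, 4.25 and 2.17 in Ide+/+ islets. These values overlapped, and the call was lost on the log2 TPM scale (−0.36, adjusted p = 0.44, limma, pseudocount 1, where the median of all genes was 0.50). Scaling to insulin granule genes gave −1.02 with an adjusted p of 0.053 (edgeR), and the acinar covariate gave −1.22 with 0.32. The mean transcript length that RSEM estimated for Slc39a14, weighted by isoform abundance, was 2176, 2508 and 3156 bases in Ide-/- libraries, against 2172, 2145, 1710, 2007 and 2572 bases in Ide+/+ libraries.

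**Figure D2:**
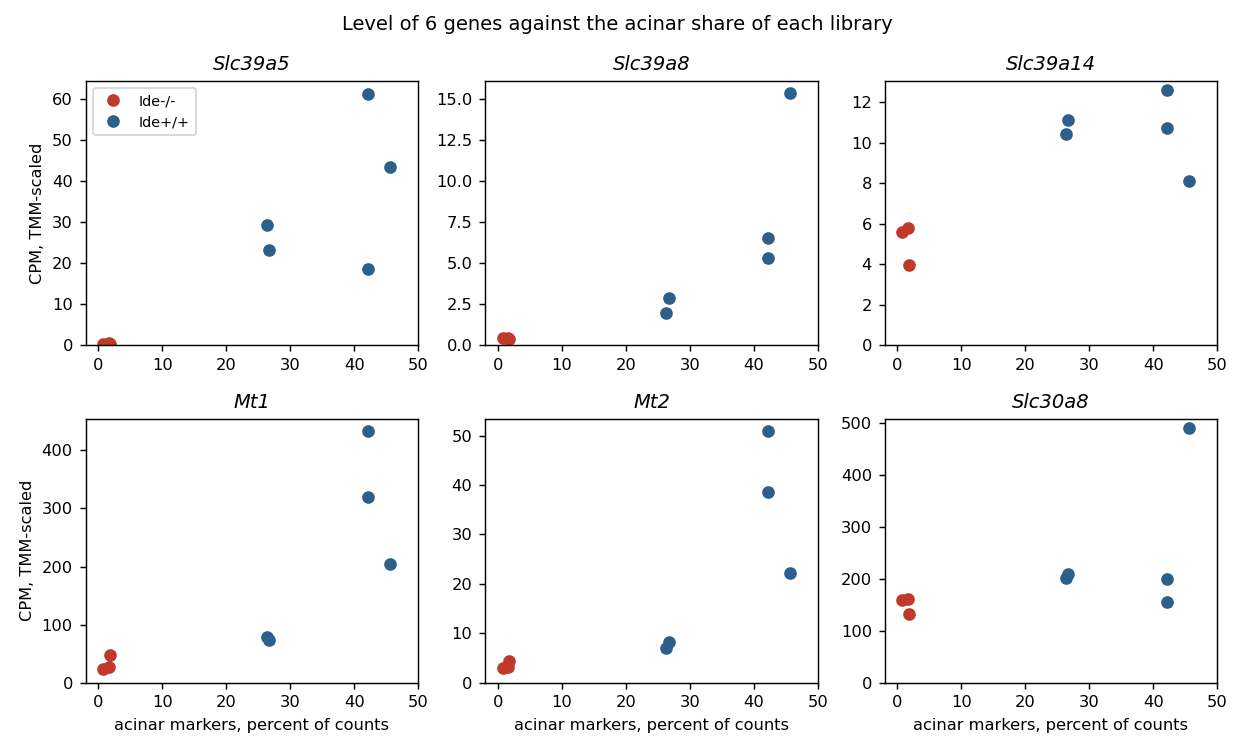
CPM of Slc39a5, Slc39a8, Slc39a14, Mt1, Mt2 and Slc30a8 (vertical axes, linear from 0) against the percent of counts from the 31 acinar cell markers (horizontal axes), with 1 point per library, Ide-/- in red and Ide+/+ in blue. The 3 Ide-/- libraries sit at 0.801% to 1.79% acinar counts and the 5 Ide+/+ libraries at 26.3% to 45.6%, with no library of either group in between.

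Slc30a8 encodes ZnT8, which loads zinc into the insulin granule of beta cells and in human is a type 2 diabetes risk gene and an autoantigen of type 1 diabetes. Slc30a8 (ENSMUSG00000022315; chromosome 15, 52295553 to 52335798, plus strand) had 158.9, 161 and 133 CPM in Ide-/- islets, against 491, 203, 209, 199 and 156 CPM in Ide+/+ islets. The groups overlapped, since Ide+/+ replicate 5 lay below Ide-/- replicates 1 and 2, and Ide+/+ replicate 1 stood far above the rest. The log2 fold change of −0.73 (SE 0.37) did not pass the test (adjusted p = 0.173, edgeR), and without Ide+/+ replicate 1 it was −0.34 (adjusted p = 0.19). In TPM, Slc30a8 had 125, 118 and 76.6 in Ide-/- islets, against 113, 118, 117, 68.4 and 41.9 in Ide+/+ islets. These values overlapped along most of their range. By TPM it ranked 291 to 412 among protein-coding genes in Ide-/- libraries and 168 to 467 in Ide+/+ libraries, the highest placed zinc transporter of the 7 in every library.

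Relative to insulin transcripts, Slc30a8 was lower in every Ide-/- library. Per 1000 TPM of Ins1 and Ins2 summed, Slc30a8 had 0.333, 0.423 and 0.333 TPM in Ide-/- islets, against 0.809, 0.696, 0.681, 0.603 and 0.954 TPM in Ide+/+ islets. The groups were separated by a gap between 0.423 and 0.603. The log2 ratio fell by 1.03, 2.05-fold (exact permutation p = 0.0179, the smallest the design allows, and 0.0446 adjusted over the 5 ratios). That adjusted value leans on the ratio of metallothioneins to acinar markers, which had the same p and a denominator that fell. With any 1 library left out the difference ran from −1.15 to −0.94. Without Ide+/+ replicate 2 or 3, which were closely alike, the exact permutation p was 0.0286. That is the smallest possible with such a library left out, and it was not adjusted. Neither insulin gene passed the test on its own. Ins1 averaged 16601 ± 1994 CPM in Ide-/- islets and 12299 ± 5946 CPM in Ide+/+ islets. Ins2 averaged 69305 ± 8266 CPM in Ide-/- islets and 55628 ± 26585 CPM in Ide+/+ islets. In TPM, the scale of the ratio, both were higher in every Ide-/- library, as were 39.3% of all tested genes, while Slc30a8 overlapped. Ins1 averaged 22996 TPM in Ide-/- islets and 9317 TPM in Ide+/+ islets, and Ins2 271647 and 118144 TPM. How the difference in ratio divides between Slc30a8 and insulin therefore depends on the scale. The share of all tested genes that separate in this way against insulin was not worked out. The 5 genes nearest to Slc30a8 in pattern, chosen for that likeness, had log2 fold changes of −0.73 to −0.63 (edgeR). The change of Slc30a8 in CPM was thus not particular to it. Against the summed TPM of 18 insulin granule genes (granule cargo, processing enzymes and membrane proteins), Slc30a8 was lower by 0.49 on the log2 scale. That difference did not pass (exact permutation p = 0.0536, adjusted p = 0.0893). Without Ide+/+ replicate 1 it was smaller, at −0.33 (exact permutation p = 0.0286, the smallest possible with that library left out, and not adjusted). Per 1000 granule TPM, Slc30a8 had 30.7, 36.6 and 33.5 TPM in Ide-/- islets, against 74.0, 39.5, 41.3, 42.9 and 44.7 TPM in Ide+/+ islets. The groups did not overlap on this ratio, with a gap between 36.6 and 39.5.

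**Figure D3:**
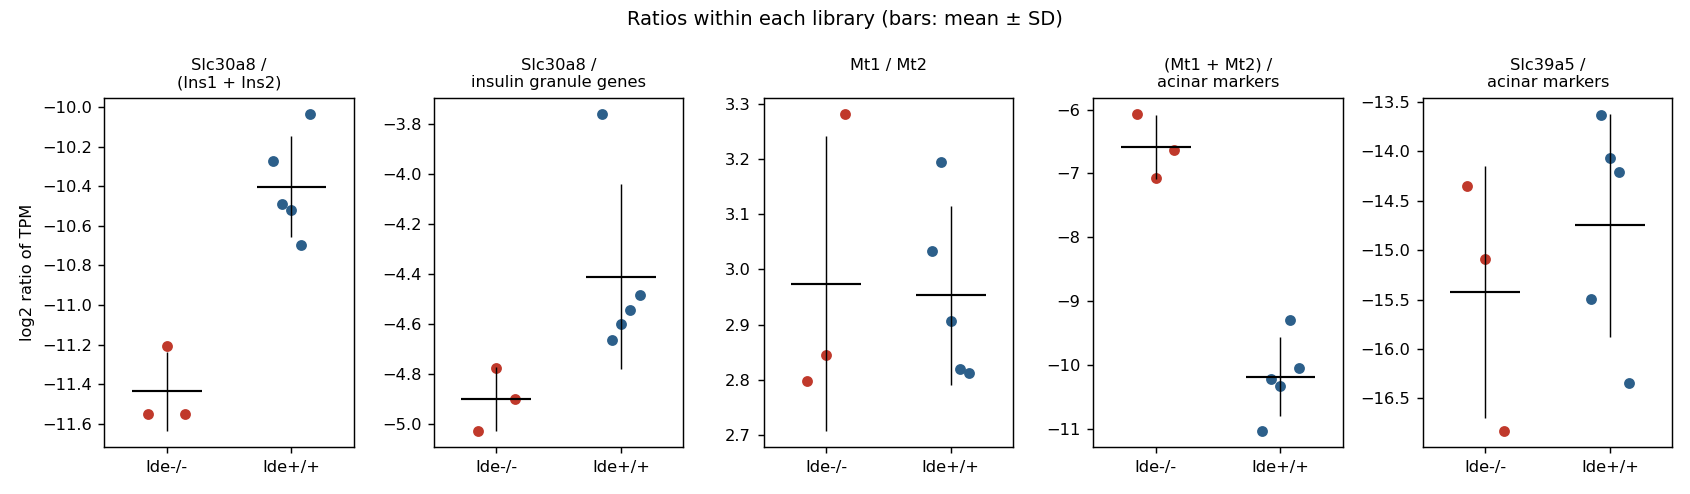
The 5 log2 TPM ratios by library, with Ide-/- left of Ide+/+ and lines at each group's mean ± SD. The groups are apart for Slc30a8 to insulin, Slc30a8 to granule genes and metallothioneins to acinar markers, and they overlap for Mt1 to Mt2 and for Slc39a5 to acinar markers.

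Slc30a5 and Slc30a7 encode ZnT5 and ZnT7, which carry zinc into the Golgi and early secretory pathway, ZnT5 as a pair with ZnT6. Slc30a5 (ENSMUSG00000021629; chromosome 13, 100802648 to 100833427, minus strand) had 33.0, 30.7 and 31.5 CPM in Ide-/- islets, against 23.7, 19.8, 23.4, 25.7 and 19.8 CPM in Ide+/+ islets. All Ide-/- libraries lay above all Ide+/+ libraries, as for 17.4% of all tested genes. The log2 fold change of 0.50 (SE 0.17) missed the threshold (adjusted p = 0.056, edgeR), and without Ide+/+ replicate 1 it was 0.51 (adjusted p = 0.0226). DESeq2 gave an adjusted p of 0.0168, in a tool that made 30 false calls among 162 on simulated counts. Those counts were drawn without the acinar difference between the groups, so that rate may not hold here. With any other library left out the adjusted p ran from 0.074 to 0.169 (edgeR), and it was 0.135 scaled to granule genes and 0.137 with no filter. Slc30a5 was called higher in 6 of 17 alternatives, which included the 1 CPM filter, library totals and both log2 TPM fits (limma). With library totals and on log2(TPM + 1), 51.7% and 36.8% of all tested genes were also called higher. In TPM, Slc30a5 averaged 17.0 ± 2.77 in Ide-/- islets and 6.46 ± 2.55 in Ide+/+ islets (SD, n = 3 and 5).

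Slc30a7 (ENSMUSG00000054414; chromosome 3, 115938973 to 116007406, minus strand) had 24.9, 20.7 and 21.7 CPM in Ide-/- islets, against 31.8, 20.6, 19.9, 26.1 and 17.5 CPM in Ide+/+ islets. The Ide-/- range lay within the Ide+/+ range, and edgeR put the difference at −0.04 on the log2 scale (SE 0.22, adjusted p = 0.90). Slc30a1 encodes ZnT1, the exporter of the plasma membrane that protects cells from excess zinc. Slc30a1 (ENSMUSG00000037434; chromosome 1, 191906767 to 191913247, plus strand) had 2.26, 2.89 and 3.94 CPM in Ide-/- islets, against 3.11, 2.06, 1.99, 3.71 and 3.86 CPM in Ide+/+ islets. The ranges overlapped, with a difference of 0.04 on the log2 scale (edgeR, SE 0.31, adjusted p = 0.93). Its antisense partner 1700034H15Rik had 14 counts over the Ide-/- libraries and 23 over the Ide+/+ libraries, against 195 and 267 for Slc30a1. The difference between its change and those of Mt1 and Mt2 was not tested.

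The choice of unit mattered for the genes that did not fall. In TPM, where every library sums to the same total and acinar transcripts take a large part of the Ide+/+ libraries, Slc30a1, Slc30a5, Slc30a7 and Mtf1 were higher in every Ide-/- library than in every Ide+/+ library. This 4 of 10 is near the background, since 39.3% of all tested genes showed the same in TPM. Slc30a1 averaged 0.740 ± 0.092 TPM in Ide-/- islets and 0.384 ± 0.077 TPM in Ide+/+ islets. Slc30a7 averaged 7.13 ± 1.57 TPM in Ide-/- islets and 4.00 ± 1.33 TPM in Ide+/+ islets. Mtf1 averaged 5.32 ± 0.749 TPM in Ide-/- islets and 3.17 ± 1.17 TPM in Ide+/+ islets. Slc39a5, Slc39a8, Mt1 and Mt2 were lower in every Ide-/- library on both scales, as were 2.8% of all tested genes in TPM.

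Within a library, the make-up of each transporter family can be read per length, as a share of the family's summed TPM. Slc30a8 was the largest part of the 10 ZnT genes, at 71.0%, 72.0% and 68.5% in Ide-/- islets, against 86.4%, 79.5%, 79.1%, 74.5% and 74.7% in Ide+/+ islets. All Ide-/- shares lay below all Ide+/+ shares, although the summed ZnT TPM was 151 ± 34.2 in Ide-/- islets and 115 ± 40.1 in Ide+/+ islets. Slc30a5 held 11.5 ± 1.53% of the family in Ide-/- islets and 5.82 ± 1.58% in Ide+/+ islets, again without overlap. Among the 14 ZIP genes the summed TPM was 79.1 ± 20.8 in Ide-/- islets and 77.1 ± 29.1 in Ide+/+ islets. Slc39a7, an importer from the endoplasmic reticulum into the cytosol, was the largest part, with 43.8 ± 3.05% in Ide-/- islets and 35.8 ± 5.34% in Ide+/+ islets. Slc39a5 held 0.317 ± 0.155% in Ide-/- islets and 18.2 ± 5.07% in Ide+/+ islets. The Golgi importer Slc39a9 held 14.0 ± 1.42% in Ide-/- islets and 6.71 ± 0.771% in Ide+/+ islets. The shares of a family sum to a fixed total, so a fall of 1 gene raises the shares of the others, and a rise lowers them. In TPM, 39.3% of all tested genes were higher in every Ide-/- library, Slc30a5 among them, while Slc30a8 overlapped. In CPM, Slc39a9 averaged 26.6 ± 3.64 in Ide-/- islets and 25.8 ± 7.07 in Ide+/+ islets. Slc39a7 averaged 58.8 ± 12.1 and 83.8 ± 22.8 CPM, and neither gene was called. These shares are descriptions and were not tested.

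**Figure D4:**
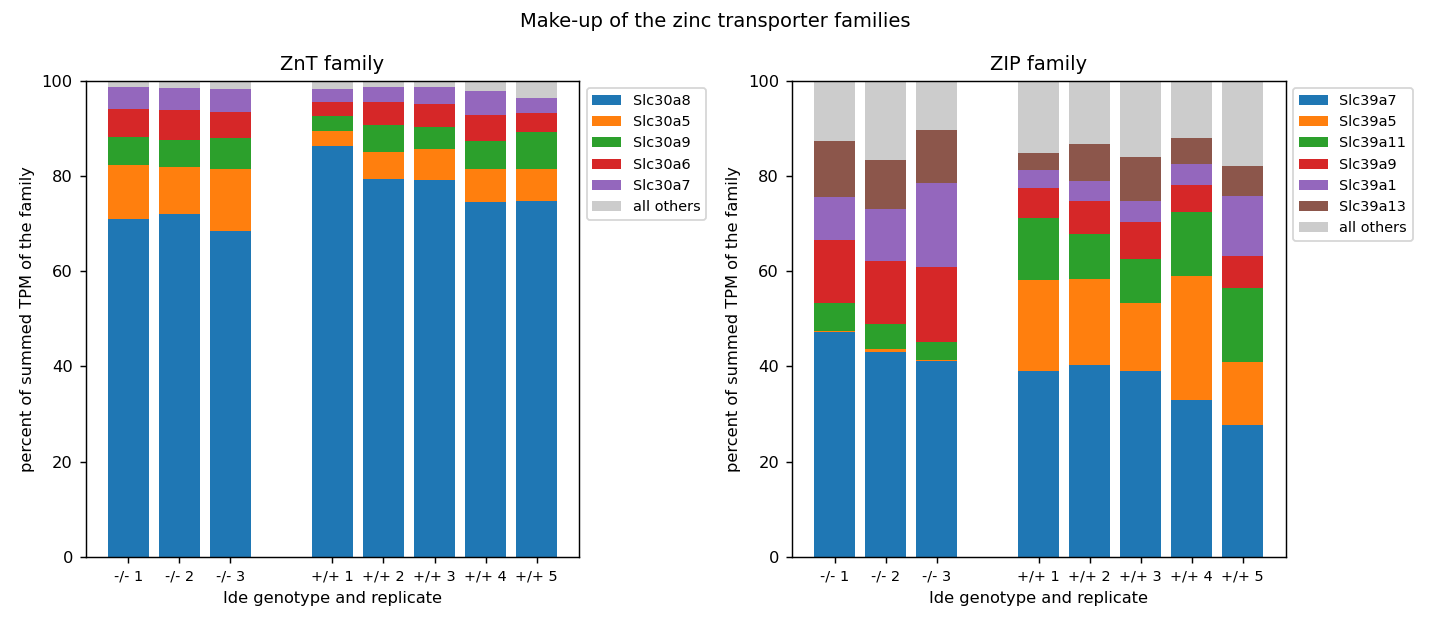
Share of each gene in the summed TPM of its transporter family, in percent, for each library, with the Ide-/- libraries left of the Ide+/+ libraries. Slc30a8 holds most of the ZnT total in all 8 libraries, and the Slc39a5 part of the ZIP total, 18.2% on average in Ide+/+, is 0.317% in Ide-/-.

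A further 24 genes of zinc transport, buffering and sensing were listed, of which 20 were tested. In Ide-/- islets 1 rose, 4 fell and 15 did not pass. These 5 of 20 calls are close to the 21.1% called among all tested genes. The median log2 fold change was −0.11, against −0.01 for all tested genes. Slc30a3, Slc30a10, Slc39a12 and Mt4 were too low to test. Among 7 other exporters 5 were tested. Tmem163, a vesicular zinc efflux protein, rose to 6.32, 6.39 and 7.06 CPM in Ide-/- islets, against 2.51, 4.12, 4.05, 3.65 and 1.93 CPM in Ide+/+ islets. The groups did not overlap (log2 fold change 0.97, SE 0.25, adjusted p = 0.0198, edgeR). The call rested on all 3 Ide-/- libraries, since leaving out replicate 1, 2 or 3 gave an adjusted p of 0.062, 0.069 or 0.075. Slc30a2, which encodes ZnT2 and loads zinc into the zymogen granules of acinar cells, fell by 4.83 (SE 0.94, adjusted p = 0.0051, edgeR). It had 2, 3 and 2 counts in Ide-/- libraries, against 82, 40, 30, 34 and 36 counts in Ide+/+ libraries. The 2 most abundant other exporters, Slc30a9 and Slc30a6, had log2 fold changes of −0.01 (SE 0.17) and −0.18 (SE 0.25) and did not pass.

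Of 11 other ZIP importers 10 were tested, 2 fell and 0 rose. Slc39a11, whose protein sits in Golgi and nuclear membranes, averaged 7.73 ± 2.44 CPM in Ide-/- islets and 32.7 ± 10.8 CPM in Ide+/+ islets, a fall of 2.06 (SE 0.31, adjusted p = 0.0015, edgeR). With library totals as the only scaling its change was −0.65 (adjusted p = 0.188, edgeR), or −1.87 relative to the median of all genes. Slc39a4, the intestinal zinc importer, averaged 0.385 ± 0.346 CPM in Ide-/- islets and 2.16 ± 0.660 CPM in Ide+/+ islets, a fall of 2.25 (SE 0.54, adjusted p = 0.0136, edgeR). It had 0 counts in Ide-/- replicate 3, and without Ide-/- replicate 2 its adjusted p was 0.056. With library totals Slc39a4 was at −1.03 (adjusted p = 0.23, edgeR), or −2.25 relative to the median. The 2 most abundant, Slc39a7 and Slc39a9, did not pass. Slc39a7 averaged 58.8 ± 12.1 CPM in Ide-/- islets and 83.8 ± 22.8 CPM in Ide+/+ islets. Slc39a9 averaged 26.6 ± 3.64 CPM in Ide-/- islets and 25.8 ± 7.07 CPM in Ide+/+ islets. Of 6 zinc buffering, sensing and chaperone genes 5 were tested, and 1 fell. This was Slc11a2, the divalent metal transporter that takes up iron, with 6.89 ± 1.22 CPM in Ide-/- islets and 13.3 ± 4.22 CPM in Ide+/+ islets. The log2 change of Slc11a2 was −0.94 (edgeR, SE 0.26, adjusted p = 0.026) and 0.35 with library totals as the only scaling (−0.87 relative to the median of all genes), and it was not called without Ide-/- replicate 2 or 3 or Ide+/+ replicate 4 (adjusted p = 0.117, 0.088 and 0.055). Cbwd1, a zinc chaperone, had a log2 fold change of 0.24 (SE 0.22). With library totals as the only scaling 9 of the 20 were called higher and 1 lower (51.7% and 1.73% of all tested genes). On the log2 TPM scale (limma, pseudocount 1) 7 were called higher and 3 lower (36.8% and 2.53% of all tested genes). With the acinar covariate 0 of the 20 were called, and 2 had an unadjusted p under 0.05.

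**Figure D5:**
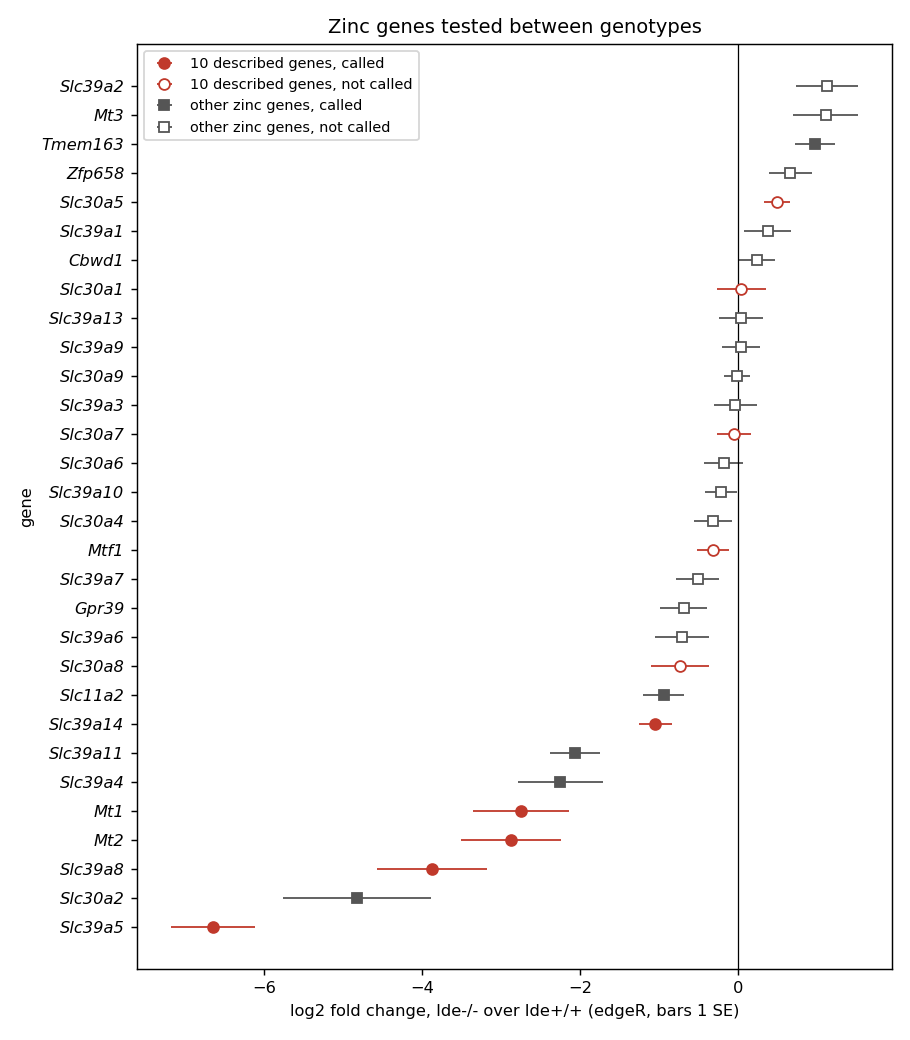
Log2 fold change (Ide-/- over Ide+/+) with its standard error for the 10 zinc genes and the other tested zinc genes, with filled points for those called at an adjusted p under 0.05 by edgeR. Slc39a5 at −6.64 lies farthest from 0, and Tmem163 at 0.97 is the called gene to the right of 0.

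Genes whose centred log2 CPM ran closest to Slc30a8 and to Mt1 over the 8 libraries were listed among the 12075 tested protein-coding genes that averaged 1 CPM or more. Nearest to Mt1 was Mt2, with a root mean square difference of 0.175 log2 units. The next were Slc7a3, a transporter of cationic amino acids, at 0.295, the immunoproteasome subunit Psmb10 at 0.367, the heparan sulfate enzyme Hs3st3b1 at 0.374 and Urah, an enzyme of urate breakdown, at 0.390. Nearest to Slc30a8 were Cyp51, an enzyme of cholesterol synthesis, at 0.0891, the peptidase Dpp4 at 0.0939, the phosphatase subunit Ppp6c at 0.0990, the Golgi SNARE Gosr2 at 0.102 and the DNA repair protein Xrcc5 at 0.103. All 5 genes near Slc30a8 were, like it, highest in Ide+/+ replicate 1. Without that library, a choice made after seeing the data, 0 of these 5 stayed among the nearest 5, so the list rests on it. For Mt1, 4 of 5 stayed, with Mt2 nearest at 0.187. The distances are a description across libraries that differ in depth and acinar content.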

How the data were processed

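RNA of 8 islet samples (100 ng each, integrity number above 6.5, NEBNext low-input kit, per the labels' protocols) was sequenced. The submitters' processing notes name STAR 2.7.1a, RSEM 1.3.1 and the build GRCm38. The strand setting and annotation are not given in the sources used here. Per gene, the authors deposited an RSEM expected count (reads, those matching several genes divided by a model, not normalized), a TPM and an FPKM (both corrected for length and library size), and a length. FPKM was not used. Symbols came from GENCODE M21, which held 55227 of 55487 identifiers. No pair of libraries was equal within sampling noise (chi-square per degree of freedom over genes). Ide+/+ replicates 2 and 3 were closest, at 5.64, against 55.6 for the next pair and 106 to 682 for the other Ide+/+ pairs. They were kept as 2 samples, and without either of them the same number of the 10 genes, 5, was called. The permutation tests of ratios also counted them as 2, and whether they shared animals is not given. Without replicate 2 or without replicate 3, the log2 ratio of Slc30a8 to insulin was −1.06. That of metallothioneins to acinar markers was 3.59 and 3.56 (exact permutation p = 0.0286 for each of these fits). This p is the smallest possible with such a library left out, and it was not adjusted.

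Expected counts were rounded. Genotypes were compared with edgeR 4.0.16 (quasi-likelihood F test, R 4.3.3, robust, TMM scaling, default filter with a minimum count of 10 and a total of 15), fitted to all genes without covariates. Benjamini-Hochberg adjustment ran over 16266 genes, with calls at an adjusted p under 0.05. Fold changes are Ide-/- over Ide+/+, and SE is the absolute log2 fold change over the square root of F. On simulated counts with these group sizes (15062 genes tested), 23% of 2-fold and 86% of 4-fold changes were called, with 4 false among 113 calls (DESeq2 made 30 false among 162). Ratios of TPM within a library were compared with a two-sided exact permutation test. Alternatives were DESeq2 1.42.0, other scalings and filters, limma 3.58.1 on log2(TPM + 1) and log2(TPM + 0.1), a replicate block, an acinar covariate and each library left out. Their number and depth limit precision, and low counts (under 20) make single Ide-/- values of Slc39a5 and Slc39a8 imprecise.

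All 10 members were described. From the lists of other zinc genes, every called gene and the 2 with the highest mean CPM were named, and for Slc30a8 and Mt1 the 5 genes nearest in pattern. The members and lists were chosen with earlier results of these data known.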

Additional observations from a re-analysis of the deposited data

Results flagged for a closer look

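Outlying libraries were looked for in the 5 Ide+/+ libraries with Dixon's test (gap over range, 95% critical value for 5 samples), over 25 sets of values (CPM and TPM of the 10 genes, and the 5 ratios). Chance flags about 1 set in 20. In 3 sets the highest library stood apart, each time Ide+/+ replicate 1, the library whose X- and Y-linked counts also differ from the rest. For Slc30a8 in CPM the gap was 0.8412 of the range, with 491 CPM in replicate 1 against 156 to 209 CPM in replicates 2 to 5. For Slc39a8 in TPM the gap was 0.7163 of the range, with 2.08 TPM in replicate 1 and 0.670 to 1.07 TPM in the others. For the log2 ratio of Slc30a8 to insulin granule genes the gap was 0.8017 of the range, with −3.76 in replicate 1 and −4.66 to −4.48 in the others. Replicate 1 also had the lowest TMM factor, 0.405, and the highest acinar share of counts, 45.6%.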

How the results depend on the processing

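Of the 10 zinc genes, the number called was 5 in the reported fit, 3 with no filter on low counts, 3 with a replicate block, 0 with the acinar covariate, and 5 to 6 with a library left out. The count for the other zinc genes was 5, against 10 with library totals, 10 with either TPM pseudocount, 3 with the block, 0 with the covariate, and 2 to 6 with a library left out (2 without Ide-/- replicate 2 and 3 without Ide-/- replicate 3). Over all genes it was 3426 (1699 higher, 1727 lower), against 1764 scaled to granule genes (860 and 904), 8686 with library totals (8405 and 281), 6399 with TPM + 1 (5987 and 412), 5157 with TPM + 0.1 (4772 and 385), 1171 with the block, 12 with the covariate, and 1547 to 4280 with a library left out. The median of all genes moved to 1.22 with library totals, 0.50 with TPM + 1 and 0.83 with TPM + 0.1. In that order, Slc30a8 changed sign (0.65, 0.29, 0.29, or −0.57, −0.21, −0.54 relative to the median), as did Slc30a7 (1.27, 0.73, 0.87, or 0.04, 0.23, 0.04 relative to the median) and Mtf1 (0.90, 0.64, 0.79, or −0.32, 0.14, −0.04), and Slc39a14 with library totals (0.18, or −1.04 relative to it). Scaled to granule genes, Slc30a7 was at 0.067. With the covariate, Slc30a8 was at 0.51, Slc30a7 at 0.70, Slc39a8 at 0.49, Mt1 at 1.71 and Mt2 at 2.08; the cause was not tested. The 5 falls stayed called with any library left out: −7.00 to −6.35 for Slc39a5, −4.12 to −3.25 for Slc39a8, −1.14 to −0.90 for Slc39a14, −3.11 to −2.35 for Mt1 and −3.12 to −2.44 for Mt2. Slc30a1 ran from −0.17 to 0.22, and Slc30a7 from −0.13 to 0.091.

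Same-numbered libraries did not deviate together (correlations 0.0485, 0.0092 and −0.0934 over genes), and differently numbered pairs ran from −0.304 to 0.238. Pairing by number was therefore not seen, but these few correlations cannot exclude it. With the replicate block, the log2 ratio of Slc30a8 to insulin was −1.01 and that of metallothioneins to acinar markers 3.94, each at an exact permutation p of 0.25, the smallest 3 pairs allow. The block also left Mt1 (−1.73) and Slc39a14 (−0.95) uncalled, and among the other zinc genes Slc39a4 (−2.13) and Tmem163 (0.90). With a library left out the 2 ratios ran from −1.15 to −0.94 and from 3.34 to 3.83. The ratio of Slc30a8 to granule genes was −0.52 from counts (exact permutation p = 0.0357) and −0.55 to −0.33 with a library left out. The Mt1 to Mt2 ratio reversed to −0.0015 from counts and −0.070 with the block, and ran from −0.13 to 0.11. Slc39a5 to acinar markers ran from −1.21 to 0.030.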
